A study of Mus musculus with 2 samples.

Results

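Macrophage nuclei of mouse calf muscle were taken here as the nuclei that held 1 or more UMIs (unique molecular identifiers, each a captured RNA molecule) of at least 3 of 9 genes, F13a1, Mrc1, Cd163, Dock2, Ptprc, Mctp1, Inpp5d, Rbm47 and Tbxas1. The nuclei were thus selected on detected UMIs of those genes, and numbered 489 of 16530 nuclei, with 350 of 9156 in plantaris and 139 of 7374 in gastrocnemius. The muscles came from untreated wild-type C57BL/6 mice aged 12 weeks and gave 1 single-nucleus RNA sequencing library each. Nuclei were released by mincing and bead homogenisation, stained with the DNA dye propidium iodide and sorted before droplet capture. How many mice gave a library, their sex, and whether both muscles came from the same animals is not given in the sources used here. Muscle, animal and library therefore cannot be told apart, and no difference below has a replicate check or a test.

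Resident macrophages lie in the connective tissue between and around muscle fibres, where they survive on signals through the receptor Csf1r. They clear dying cells, debris, haemoglobin and free iron, and they secrete factors that act on fibres and stem cells. In many mouse tissues one kind carries Lyve1, Timd4 or Folr2 on its surface, and another carries MHC class II molecules, which present antigen to T cells.

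The 9 genes that chose the nuclei belong to several parts of this programme. F13a1 is the catalytic chain of clotting factor XIII, Mrc1 the mannose receptor CD206, and Cd163 the scavenger receptor for haptoglobin and haemoglobin. Dock2 activates the GTPase Rac in blood cells, Ptprc is the leukocyte surface phosphatase CD45, and Inpp5d is the phosphoinositide phosphatase SHIP1. Tbxas1 makes thromboxane, Rbm47 binds RNA, and Mctp1 is a membrane protein with calcium-binding domains.

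The promoters of these genes are shown because the genes are detected in the same nuclei and one transcription factor family is known to act at many myeloid promoters. Each window of 60 bases comes from the 250 bases before a start site, from RefSeq on build GRCm38.p6. Capitals mark GAGGAA, or its reverse complement where the match is on the opposite strand. These letters are the purine-rich core bound by PU.1, the myeloid transcription factor encoded by Spi1. The F13a1 window is chr13:37050278-37050337 (minus strand), the Mrc1 window chr2:14229352-14229411 (plus strand), the Dock2 window chr11:34783906-34783965 (minus strand) and the Ptprc window chr1:138175431-138175490 (minus strand).
F13a1: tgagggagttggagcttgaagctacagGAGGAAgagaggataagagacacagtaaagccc
Mrc1: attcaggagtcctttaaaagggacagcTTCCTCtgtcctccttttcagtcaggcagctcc
Dock2: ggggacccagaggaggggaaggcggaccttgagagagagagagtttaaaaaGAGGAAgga
Ptprc: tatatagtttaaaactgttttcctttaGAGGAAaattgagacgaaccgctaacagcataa
The 6 letters, on either strand, stood in the 250 bases before the start in 8 of 13 windows of the 9 genes (61.5%). They stood in 7639 of all 32851 promoter windows (23.3%), and in 7 of 28 windows of the 20 genes with an entry among the 25 named further below. The longer GAGGAAGT, which contains those letters, stood in 1 of the 13 windows, that of Inpp5d, and in 2.44% of all windows. Cd163 had no match in its window. A match of letters is a description and not a measured binding site.

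The nuclei so chosen had a lower median depth than the rest. Median depth was 1445.5 UMIs in plantaris macrophage nuclei and 964 UMIs in gastrocnemius macrophage nuclei, against 2741 and 2285 UMIs for all other nuclei of the same libraries. Among the other nuclei, those of myonuclear clusters had medians of 3324.5 and 2778.5 UMIs, and those of non-myonuclear clusters 1496 and 1217 UMIs. The clustering is described below. A cluster counted as myonuclear when its sum of 10 myonuclear markers reached 50% or more of that of the highest cluster. Summed, the macrophage nuclei held 1298372 UMIs in plantaris and 269042 in gastrocnemius, of 29248275 and 19048595 UMIs in the libraries. That was 4.44% of UMIs for 3.82% of nuclei in plantaris, and 1.41% for 1.89% in gastrocnemius. The deepest plantaris macrophage nucleus held 53080 UMIs, against 42337 in the deepest other plantaris nucleus. Very deep nuclei thus weigh heavily in summed levels, also inside the cluster described below, where the deepest held 52338 UMIs. Levels below are CPM, the summed UMIs of a gene divided by all UMIs of the same nuclei and multiplied by 1000000. Intervals in parentheses are at 95% and cover counting error only. The libraries shared 17 barcode sequences, and none of those nuclei was a macrophage nucleus.

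F13a1 was detected in 82.0% of macrophage nuclei of plantaris (77.6 to 85.9) and in 89.9% of gastrocnemius (83.7 to 94.4), against 1.37% and 1.31% of all other nuclei. Mctp1 was detected in 93.4% and 82.7% of macrophage nuclei, against 3.78% and 2.38% of all other nuclei. Mrc1 was detected in 66.0% and 77.7% of macrophage nuclei, against 1.28% and 1.66%. These values describe the choice of the nuclei, since the rule is built on them. The other 6 genes were each detected in 36.0% to 62.0% of macrophage nuclei of either muscle, and in at most 0.579% of all other nuclei. Of the 231 plantaris macrophage nuclei with a UMI of Mrc1, 202 also held F13a1 (87.4%), and 99 of 108 did so in gastrocnemius (91.7%).

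**Figure D1:**
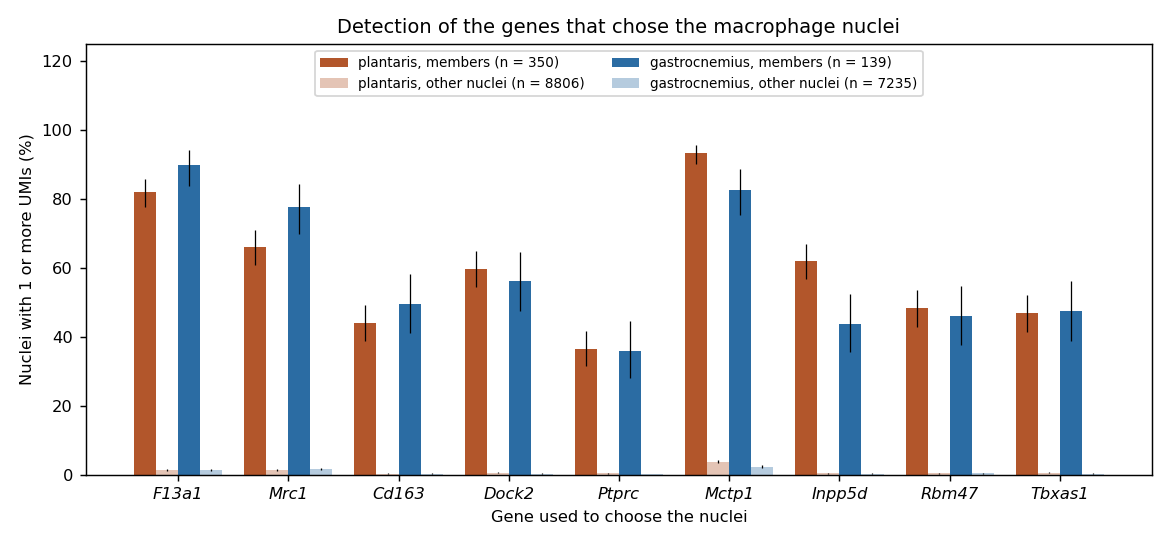
Share of nuclei with 1 or more UMIs (%) of each of the 9 genes that chose the macrophage nuclei, in members and in all other nuclei of each library; lines are 95% Clopper-Pearson intervals. Every gene is detected in 36.0% or more of the macrophage nuclei of each muscle and in at most 3.78% of the other nuclei.

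The threshold of 3 genes cut through a continuous range. Nuclei with exactly 3 of the 9 genes, just inside, numbered 52 in plantaris and 15 in gastrocnemius. Nuclei with exactly 2, just outside, numbered 65 and 43. A list of 25 macrophage markers that holds none of the 9 genes summed to 529 CPM in plantaris and 565 CPM in gastrocnemius nuclei with 3 genes, and to 237 and 364 CPM in nuclei with 2. With 4 or more genes the sum lay between 769 and 1566 CPM in plantaris and between 1642 and 4310 CPM in gastrocnemius. With 1 gene it was 96.8 and 62.0 CPM, and with none 82.5 and 55.3 CPM. The marker sum was thus higher with 3 genes than with 2 in both muscles, and nuclei with 1 gene lay close to those with none.

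**Figure D2:**
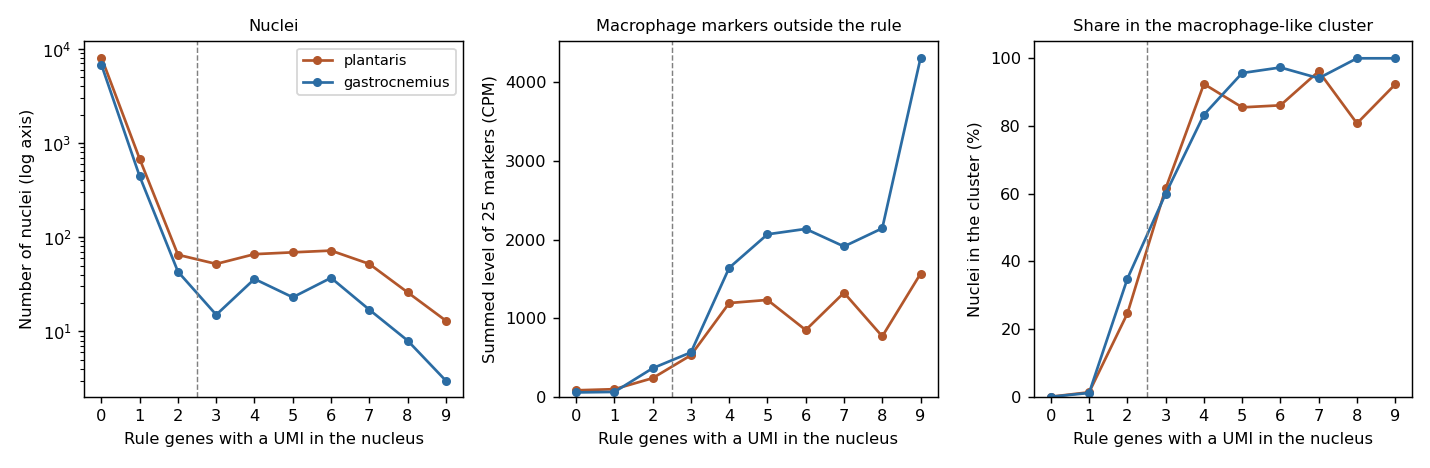
Nuclei by how many of the 9 genes they hold (horizontal axis): number of nuclei (log axis), summed CPM of 25 macrophage markers outside the rule, and share of nuclei (%) in the macrophage-like cluster, per library; the dashed line marks the threshold. The marker sum is 529 and 565 CPM at 3 genes, against 237 and 364 CPM at 2 genes, in plantaris and gastrocnemius.

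Clustering of all nuclei without the 9 genes placed most of the chosen nuclei in a single cluster. It held 297 of 350 in plantaris and 124 of 139 in gastrocnemius, with 27 and 20 further nuclei that did not meet the rule. Its 10 leading genes by fold were Bank1, Prkcb, Arhgap45, Fyb, Ikzf1, March1, Epsti1, Stab1, Alcam and Cyth4. Its summed macrophage markers reached 1550 CPM. The next highest of the 22 clusters, 11 nuclei led by mitochondrial genes, had 504 CPM, and the cluster is called macrophage-like. Bank1, an adaptor best known from B cells, led the cluster, while Cd79a, Ms4a1 and Pax5, which define B cells, stood at 0 UMIs in macrophage nuclei of both muscles. The list of 8 B cell markers summed to 215 CPM in plantaris and 249 CPM in gastrocnemius macrophage nuclei, against 16.7 and 26.6 CPM in all other nuclei, with 4 and 3 of its genes detected. Bank1 gave 252 and 57 of those UMIs, and Ighm, the heavy chain of immunoglobulin M, gave 24 and 9.

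The 53 plantaris and 15 gastrocnemius macrophage nuclei outside that cluster differed from those inside. Their median depth was 5465 and 2380 UMIs, against 1237 and 943.5 UMIs inside. Macrophage markers summed to 299 and 504 CPM outside, against 1408 and 2280 CPM inside. Median doublet scores were 0.135 and 0.121 outside, against 0.0441 and 0.0396 inside. Most of those 68 nuclei lay in clusters led by mesenchymal, mural or tendon genes. In plantaris they held 497503 of the 1298372 UMIs summed over macrophage nuclei, so the main counts and ratios between the muscles are also given for the nuclei inside the cluster. Whether these nuclei are droplets with a pair of nuclei was not tested, and the doublet caller marked only 4 nuclei in all.

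The label was checked against markers of resident macrophages and of other cells. Of 16 resident macrophage markers, all 16 were detected in macrophage nuclei of both muscles. In all other nuclei, which were many more, 14 were detected in plantaris and 12 in gastrocnemius. The markers summed to 873 CPM in plantaris and 1375 CPM in gastrocnemius macrophage nuclei, against 154 and 88.7 CPM in all other nuclei. Against the other nuclei of non-myonuclear clusters the gap was smaller, since those nuclei held 361 and 386 CPM of the resident markers. A mesenchymal-like cluster of 246 nuclei held 761 CPM and an adipocyte-like cluster of 40 nuclei held 624 CPM, so these markers are shared with other cells of the tissue. Of the 25 general macrophage markers, 22 were detected in macrophage nuclei of both muscles, and 24 and 21 in all other nuclei. They summed to 984 and 1795 CPM in macrophage nuclei, against 85.0 and 57.4 CPM in all other nuclei. Several markers that are usual for whole macrophages were close to 0 in these nuclei. Cd68 had 7 UMIs in plantaris and 3 in gastrocnemius macrophage nuclei, Tyrobp had 7 and 1, Aif1 3 and 0, and Cd14 2 and 0.

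Markers of other blood cells were checked next. Neutrophil markers S100a8, S100a9, Camp and Ngp, T cell markers Cd3d, Cd3e and Cd3g, and mast cell markers Cpa3 and Mcpt4 stood at 0 UMIs in macrophage nuclei of both muscles. The 12 T and NK cell markers summed to 10.0 CPM in plantaris and 7.43 CPM in gastrocnemius macrophage nuclei, against 4.44 and 1.70 CPM in all other nuclei. Among monocyte markers, Ccr2 had 18 UMIs in plantaris and 13 in gastrocnemius, Ly6c2 had 2 and 0, and Chil3 had none. Sums were nonetheless above those of all other nuclei for monocyte markers (142 and 108 CPM, against 62.9 and 50.9 CPM), dendritic cell markers (96.3 and 104 CPM, against 39.7 and 34.5 CPM) and neutrophil markers (17.7 and 18.6 CPM, against 0.465 and 0.586 CPM). Most neutrophil marker UMIs were of Csf3r, the receptor for granulocyte colony-stimulating factor, with 22 and 3 UMIs. Of the 8 dendritic cell genes, 6 were detected in plantaris and 4 in gastrocnemius macrophage nuclei, among them Siglech, whose levels are given further below. Xcr1 and Ccr7 of that list stood at 0 UMIs in macrophage nuclei of both muscles.

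Markers of other cell kinds of the muscle were detected too, and the source of their UMIs was not tested. The 10 myonuclear markers, among them titin, summed to 39054 CPM in plantaris and 42124 CPM in gastrocnemius macrophage nuclei, against 72361 and 86108 CPM in all other nuclei. In the other nuclei of non-myonuclear clusters these markers summed to 31714 and 31152 CPM. Mesenchymal progenitor markers summed to 1524 and 940 CPM in macrophage nuclei, against 710 and 637 CPM in all other nuclei. Tenocyte markers summed to 237 and 63.2 CPM, against 43.2 and 21.2 CPM. Sums of mesenchymal and tenocyte markers were thus higher in macrophage nuclei of plantaris than of gastrocnemius. How far such transcripts enter the results below was not tested.

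**Figure D3:**
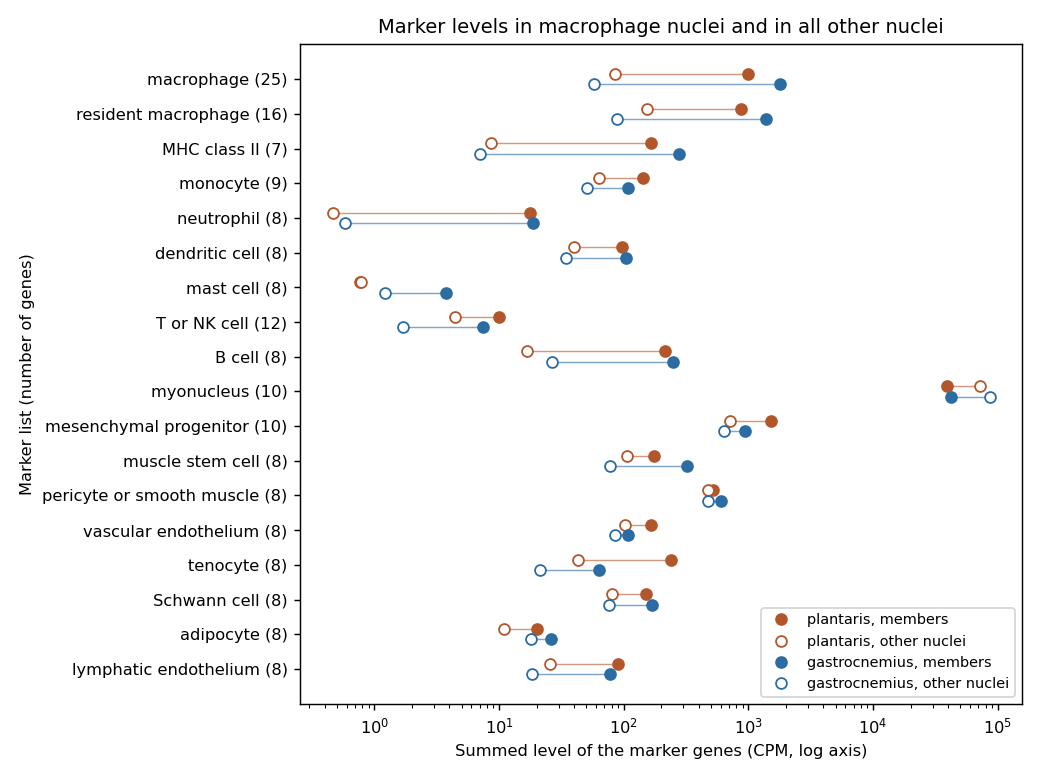
Summed level (CPM, log axis) of each of 18 marker lists in macrophage nuclei (filled) and all other nuclei (open) of each library; the number of genes in a list stands beside its name. Macrophage, resident and MHC class II lists stand to the right in macrophage nuclei, and so do others. Among these are the neutrophil list (17.7 and 18.6 CPM against 0.465 and 0.586 CPM) and the B cell list (215 and 249 CPM against 16.7 and 26.6 CPM). The tenocyte list also does so (237 and 63.2 CPM against 43.2 and 21.2 CPM). The myonuclear list stands to the left at 39054 and 42124 CPM against 72361 and 86108 CPM.

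Levels in macrophage nuclei were then set against all other nuclei, as a description, because the rule uses the same contrast. A gene counted as measured with 20 or more UMIs in each library, over macrophage and other nuclei together. It counted as higher or lower when it differed by more than 4-fold in the same direction in both. Of 12746 measured genes outside the rule, 495 (3.88%) were higher and 3 (0.0235%) were lower. Some sparse genes were measured only through their UMIs in macrophage nuclei, such as Fcgr2b in gastrocnemius, with 21 UMIs there and 2 in other nuclei. Such genes could hardly be called other than higher, so the counts, also those of the gene lists below, lean that way by construction. The median gene lay at a log2 ratio of 0.27 in plantaris and 0.59 in gastrocnemius. Against the other nuclei of non-myonuclear clusters alone, 147 genes were higher.

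The 25 genes with the largest ratios, among genes detected in 10% or more of macrophage nuclei of each muscle, were mostly genes of myeloid identity and signalling. Csf1r, the receptor for the growth factor that keeps macrophages alive, stood at 108 CPM in plantaris (90.7 to 127) and 156 CPM in gastrocnemius (113 to 211), against 0.97 and 0.85 CPM in all other nuclei. Adgre1, the surface protein F4/80, stood at 101 and 152 CPM, against 1.002 and 0.69 CPM. Mgl2, a lectin of tissue macrophages, stood at 63.2 and 92.9 CPM, against 0.39 and 0.27 CPM. Each of these 3 was over 100-fold higher in macrophage nuclei of both muscles.

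Others of the 25 act in gene regulation, in the cytoskeleton or as inhibitory receptors. Ikzf1, a transcription factor of blood cells, stood at 83.2 and 256 CPM, against 0.72 and 0.69 CPM in all other nuclei. Nckap1l, which drives actin assembly in blood cells, stood at 57.8 and 100.4 CPM, against 0.36 and 0.43 CPM. Fcgr2b, the inhibitory receptor for IgG, stood at 49.3 and 78.1 CPM, against 0.32 and 0.11 CPM. The remaining genes were Pik3ap1, Arhgap45, Nlrp1b, Lcp1, Bank1, Epsti1, March1, Prkcb, Tnfrsf11a, Aoah, Ptpro, Fyb, Ly86, Cd84, Arhgap30, Sema4a, Cd48, Cd86 and Rassf4. Over the 25, log2 ratios ran between 6.46 and 7.60 in plantaris and between 6.58 and 9.52 in gastrocnemius.

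The 10 genes with the lowest ratios, among genes at 200 CPM or more in all other nuclei, were Myhas, Asb14, Smpx, Prkcq, Klhl31, Ppp1r3a, Ell2, Kcnq5, Txlnb and Tmem117. Several are muscle genes, such as Smpx, a small protein of the sarcomere's edge, and Ppp1r3a, which targets a phosphatase to glycogen. Their log2 ratios lay between -1.38 and -1.12 in plantaris and between -1.64 and -1.15 in gastrocnemius. The same 10 were also set against the other nuclei of non-myonuclear clusters outside the macrophage-like cluster. There they lay between -0.30 and 0.25 in plantaris and between -0.51 and 0.30 in gastrocnemius. The 3 genes over 4-fold lower, named after their values were seen, were Kif26b, Kcnh7 and Gm5860. Kcnh7, a potassium channel, stood at 6.93 and 7.43 CPM, against 36.8 and 36.4 CPM in all other nuclei.

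Genes that macrophages use to take up material were grouped by function. The counts of higher genes in this and the later lists stand beside 3.88% of all 12746 measured genes. Of 17 scavenger and clearance receptors in the table, 11 were measured and 6 were higher, with a median log2 ratio of 2.07 in plantaris and 3.41 in gastrocnemius. Stab1, a scavenger receptor for modified lipoprotein and matrix, stood at 260 CPM in plantaris and 264 CPM in gastrocnemius, against 3.43 and 1.86 CPM in all other nuclei. Colec12, a collectin of the cell surface, stood at 264 and 446 CPM, against 46.6 and 36.5 CPM. Cd36, a fatty acid and lipoprotein receptor that fibres and endothelium also use, was not among the higher genes, at 155 and 476 CPM against 250 and 213 CPM.

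Of 20 genes for the uptake of dying cells, 16 were measured and 4 were higher. They were Mertk, a receptor kinase that binds dying cells through bridging proteins, Pros1, such a bridging protein, Timd4, a receptor for phosphatidylserine, and Elmo1, which acts with Dock proteins on Rac. Mertk stood at 186 and 461 CPM, against 9.98 and 9.43 CPM in all other nuclei. Pros1 stood at 77.0 and 108 CPM, against 9.30 and 9.32 CPM. Axl, a relative of Mertk, stood at 146 and 100.4 CPM, against 71.5 and 42.7 CPM, and did not pass 4-fold.

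Of 18 complement and Fc receptor genes, 7 were measured, and the higher ones included Itgam, a chain of complement receptor 3, and Fcgr2b. The chains of complement C1q had too few UMIs in gastrocnemius, over macrophage and other nuclei together, to be measured. C1qa, C1qb and C1qc had 27, 39 and 24 UMIs in macrophage nuclei of plantaris and 4, 16 and 5 in gastrocnemius.

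Genes of signalling and the cytoskeleton were higher as well. In the list of ITAM and phosphoinositide signalling, through which Fc and integrin receptors act, 13 of 22 genes were measured and 10 were higher. Syk, the kinase that docks on ITAM motifs, stood at 227 and 171 CPM, against 12.8 and 10.6 CPM in all other nuclei. Lyn, a Src family kinase, stood at 242 and 502 CPM, against 10.1 and 9.90 CPM. Regulators of the cytoskeleton were among the higher genes too. Arhgap15, which switches off Rac, stood at 517 and 1011 CPM, against 27.6 and 41.9 CPM, and Myo1f, a myosin of blood cells, at 124 and 182 CPM, against 1.47 and 1.06 CPM.

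Receptors, enzymes and secreted factors gave smaller counts. Among growth factor and cytokine receptors, 17 of 24 genes were measured and 7 were higher, among them the interleukin 10 receptor Il10ra, at 47.8 and 63.2 CPM against 0.29 and 0.16 CPM in all other nuclei. Among genes for eicosanoid synthesis, 10 of 17 were measured and 5 were higher. They were Ptgs1, a cyclooxygenase, Alox5, the first enzyme of leukotriene synthesis, Hpgds, Pla2g7 and Hpgd. Among purine receptors and ectonucleotidases, 9 of 14 were measured and 5 were higher, among them Entpd1, the enzyme CD39 that breaks down extracellular ATP, at 261 and 190 CPM against 17.0 and 8.95 CPM. Of 25 secreted cytokines and growth factors, 6 were measured and 2 were higher, Tgfb1 and Pdgfb. Igf1, a growth factor for fibres, stood at 106 and 126 CPM, against 71.5 and 30.1 CPM.

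Lists of organelle and iron genes also held higher genes, beside 3.88% of all measured genes. Of 22 lysosome and endosome genes, 19 were measured and 2 were higher, Ctsb, a cathepsin, and Slc9a9, a sodium and proton exchanger of endosomes. Slc9a9 stood at 881 and 1472 CPM, against 75.4 and 41.6 CPM in all other nuclei. Of 16 iron and haem genes, 15 were measured and 3 were higher, Hmox1, which breaks down haem, Trf, which carries iron in blood, and Blvrb, a biliverdin reductase. Slc40a1, the iron exporter ferroportin, had 17 and 6 UMIs and stood at 13.1 and 22.3 CPM, against 2.90 and 9.58 CPM.

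Of 26 macrophage transcription factors, 22 were measured and 5 were higher, Irf8, Irf5, Runx1, Ikzf1 and Klf2. Runx1 stood at 521 and 558 CPM, against 18.1 and 13.7 CPM in all other nuclei. Spi1 had 88 and 17 UMIs in macrophage nuclei, or 67.8 and 63.2 CPM, against 0.32 and 0.11 CPM in all other nuclei. It had too few UMIs in gastrocnemius, over macrophage and other nuclei together, to be measured. Maf, which other muscle nuclei also express, stood at 495 and 610 CPM, against 548 and 379 CPM.

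Genes of inflammation were sparse. Il6, Il10, Il1a, Tlr2, Arg1 and Cxcl10 stood at 0 UMIs in macrophage nuclei of both muscles. Of 10 measured genes in the Toll-like receptor pathway 3 were higher, Tlr5, Ly96 and Unc93b1. Of 6 measured genes of the inflammatory and interferon list 2 were higher, Gsdmd and Cd80. Of 7 measured genes of alternative activation 2 were higher, Mgl2 and Clec10a, both of which are lectins. No gene of the 15 functional lists was more than 4-fold lower in both muscles.

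Resident markers and MHC class II genes were then counted nucleus by nucleus. A UMI of any of the 16 resident markers stood in 82.6% of macrophage nuclei of plantaris (78.2 to 86.4) and 74.1% of gastrocnemius (66.0 to 81.2), against 27.3% and 14.7% of all other nuclei. A UMI of any of 7 MHC class II genes stood in 28.9% (24.2 to 33.9) and 25.9% (18.8 to 34.0), against 2.65% and 1.74%. Because depths differ, each nucleus was also thinned to 500 UMIs, which left no nucleus out. Shares were then 51.7% and 54.0% for resident markers, against 8.85% and 5.85%, and 12.9% and 14.4% for MHC class II genes, against 0.556% and 0.359%. In the other nuclei of non-myonuclear clusters outside the macrophage-like cluster the thinned shares were 17.0% and 16.9% for resident markers and 0.861% and 0.679% for MHC class II genes. At equal depth the intervals of plantaris (46.3 to 57.1) and gastrocnemius (45.3 to 62.4) overlapped for resident markers, as they did for MHC class II genes.

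Resident markers without MHC class II genes were the most frequent state at full depth. There 218 of 350 plantaris nuclei (62.3%) and 85 of 139 gastrocnemius nuclei (61.2%) did so, and 71 and 18 nuclei held both kinds. MHC class II genes stood alone in 30 and 18 nuclei. Thinned to 500 UMIs, resident markers stood alone in 47.1% and 49.6% of macrophage nuclei. Ciita, the activator of MHC class II genes, had 62 and 28 UMIs, and Cd74, the invariant chain, had 54 and 12. Single genes of either kind were sparse, with Lyve1 in 13.1% of plantaris and 9.35% of gastrocnemius macrophage nuclei and Folr2 in 4.57% and 3.597%. A missing UMI in a shallow nucleus does not show that the gene was off.

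**Figure D4:**
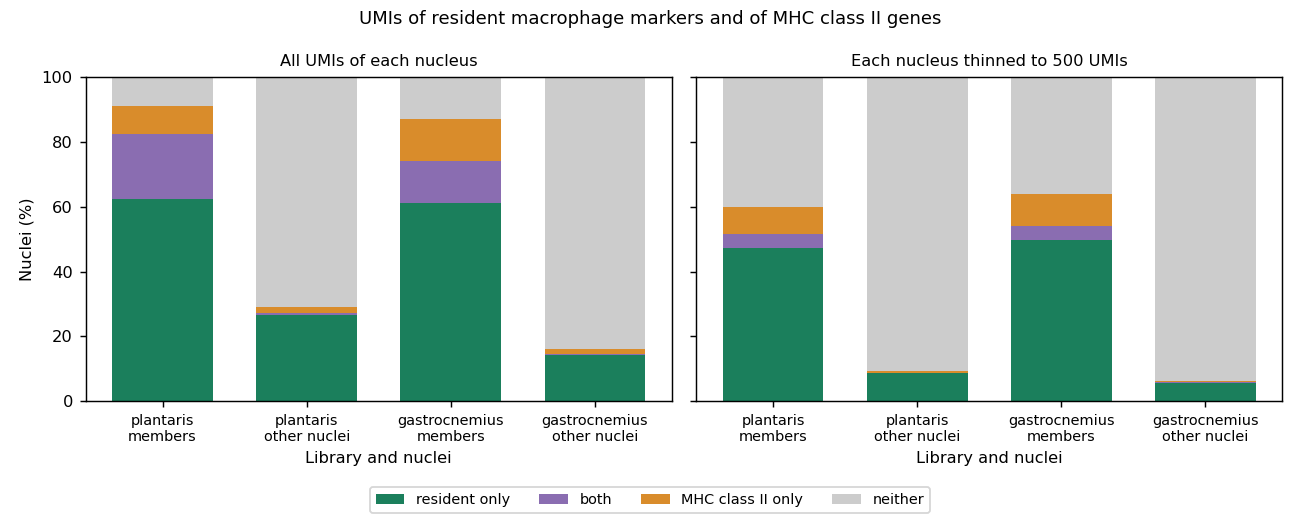
Share of nuclei (%) with UMIs of resident macrophage markers only, MHC class II genes only, both or neither, at full depth (left) and with each nucleus thinned to 500 UMIs (right). Resident markers alone stand in 62.3% of plantaris and 61.2% of gastrocnemius macrophage nuclei at full depth.

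Between the muscles, macrophage nuclei were a larger share of plantaris than of gastrocnemius nuclei. They made up 3.82% of plantaris nuclei (3.44 to 4.24) and 1.89% of gastrocnemius nuclei (1.59 to 2.22), a ratio of 2.03. The rule needs detected genes and plantaris was the deeper library, so nuclei were thinned and chosen again. At 500 UMIs the shares were 2.24% and 1.46%, a ratio of 1.53, and at 1000 UMIs they were 1.97% and 0.795%, a ratio of 2.47. The macrophage-like cluster, an alternative chosen after seeing the data, held 3.54% and 1.95% of nuclei, a ratio of 1.81. The direction was the same in each case, with 1 library on each side.

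Gene levels within macrophage nuclei were compared between the muscles for 8063 genes with 20 or more UMIs in the macrophage nuclei of both muscles together. A gene counted as different when the 95% counting interval of the ratio lay wholly past 2-fold. In plantaris 40 genes (0.496%) were higher and 43 (0.533%) were lower. Median-ratio scaling gave 25 higher and 59 lower, and the mean of the CPM of each nucleus gave 284 higher and 49 lower. The median gene had a log2 ratio of 0.11. Muscle-wide differences enter such counts, so ratios in all other nuclei are given too, and the difference between the ratios was not tested.

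Among genes lower in plantaris macrophage nuclei, 15 of 43 were also among the 495 genes higher in macrophage nuclei than in all other nuclei. Such genes have few UMIs in all other nuclei, so their ratios there are imprecise, and those of Timd4, Msr1 and Pik3ap1 were -1.90, -1.57 and -1.16, with intervals that held 0. They included C030034L19Rik, Cd86, Ikzf1, Kcnk13, Lair1, Ly86, March1, Msr1, P2ry12, Pik3ap1, Serpinb8, Slc14a1, St8sia4 and Timd4. Among the 40 genes higher in plantaris macrophage nuclei, 1 was also among the 495, Fmod, a matrix proteoglycan of tendon, which was past 2-fold in all other nuclei too. The 495 were 3.88% of the 12746 genes measured against all other nuclei. Their share of the 8063 genes compared between the muscles was not counted, so both counts are descriptions only.

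Timd4, the phosphatidylserine receptor, had 32 UMIs in plantaris and 33 in gastrocnemius macrophage nuclei, or 24.6 CPM against 123 CPM, a log2 ratio of -2.32 (-3.06 to -1.57), and at -1.90 (-5.29 to 0.72) in all other nuclei. P2ry12, a receptor for ADP that is well known from microglia, stood at 28.5 against 134 CPM, a log2 ratio of -2.23 (-2.93 to -1.53), and at 0.27 (-1.46 to 2.20) in all other nuclei. Cd86, which costimulates T cells, stood at 67.8 against 249 CPM, a log2 ratio of -1.88 (-2.35 to -1.40), and at 0.01 (-1.03 to 1.10) in all other nuclei. For all 3 genes the interval in all other nuclei spanned 0. Within the macrophage-like cluster the ratios of the 3 genes were -2.08, -2.20 and -1.80, and thinned to 1000 UMIs per nucleus they were -2.26, -1.56 and -1.28.

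Of the 11 measured scavenger receptors 2 were lower in plantaris, Msr1 and Cd36, beside 0.533% of all genes compared. Msr1, a scavenger receptor, stood at 28.5 CPM in plantaris against 112 CPM in gastrocnemius macrophage nuclei, a log2 ratio of -1.97 (-2.70 to -1.22). Cd36 stood at 155 against 476 CPM, a ratio of -1.62 (-1.95 to -1.29). Mertk stood at 186 against 461 CPM, a ratio of -1.31 (-1.62 to -0.98), whose interval reached just inside 2-fold. In the cluster Msr1 and Cd36 had ratios of -1.81 and -1.73, and thinned to 1000 UMIs per nucleus Msr1 had -1.04. Stab1, at 260 against 264 CPM, had a ratio of -0.02 (-0.40 to 0.37). In all other nuclei the ratios of Msr1, Cd36 and Mertk were -1.57, 0.23 and 0.08.

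Ctsc, the protease cathepsin C that activates enzymes of granules, stood at 87.0 CPM in plantaris against 405 CPM in gastrocnemius macrophage nuclei, a log2 ratio of -2.22 (-2.61 to -1.83), with -0.47 in all other nuclei and -2.15 in the cluster. Cybb, the core of the phagocyte NADPH oxidase, had 12 and 16 UMIs, a ratio of -2.69 (-3.90 to -1.51). Pik3cg, a lipid kinase of leukocytes, had 10 and 16 UMIs, a ratio of -2.95 (-4.25 to -1.72), and Cd38, an enzyme that consumes NAD, had 4 and 16 UMIs, a ratio of -4.27 (-6.31 to -2.64). These 3 rest on few UMIs, and their intervals are wide. In the cluster their ratios were -2.45, -2.77 and -3.84, and in all other nuclei -3.74 (-9.20 to -0.89), 0.43 (-2.38 to 3.89) and -1.11 (-2.37 to 0.08).

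The levels of the genes that chose the nuclei are given as a description, since the rule used them and the median depths of the nuclei differ. F13a1 stood at 1004 CPM in plantaris (949.8 to 1059.6) and 2468 CPM in gastrocnemius macrophage nuclei (2284 to 2663), a log2 ratio of -1.30, and Mrc1 at 384 and 1011 CPM, a ratio of -1.40. Mctp1 stood at 1374 and 1873 CPM, a ratio of -0.45 (-0.59 to -0.30), and Inpp5d at 336 and 353 CPM, a ratio of -0.07 (-0.40 to 0.26). F13a1 and Mrc1 are among the 43 lower genes. Within the cluster their ratios were -1.13 (-1.27 to -0.98) and -1.24 (-1.47 to -1.01), and with each nucleus thinned to 1000 UMIs -0.85 (-1.09 to -0.60) and -1.19 (-1.56 to -0.82). The interval of F13a1 thus reached inside 2-fold in the cluster, and those of both genes did so when thinned. The ratios of Mctp1 and Inpp5d were 0.01 and 0.25 by the mean of the CPM of each nucleus, against the sign above in both cases.

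Medians of lists of macrophage genes lay below 0, beside the median of 0.11 over all genes, but their sign depended on the processing. Of all 8063 genes compared, 0.496% were higher and 0.533% were lower in plantaris. Of 19 measured general macrophage markers none was higher in plantaris, 2 were lower (Cybb and Cd86), 5 had ratios above 0, and the median log2 ratio was -0.59, but 0.07 by the mean of the CPM of each nucleus. The 9 measured resident markers included 1 lower gene, Timd4, none above 0, and a median of -0.61, but 0.15 with each nucleus thinned to 1000 UMIs. The 11 measured scavenger receptors included 2 lower genes, 1 above 0, and a median of -0.76, but 0.21 when thinned. The same 3 lists had medians of 0.53, 0.65 and 0.27 in all other nuclei, and -0.45, -0.70 and -0.73 in the cluster. Lysosome and endosome genes had a median of 0.12, but -0.09 in the cluster, with Ctsc as the only lower gene of 17 measured, and Toll-like receptor genes a median of 0.02 with no gene past 2-fold of 11 measured.

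Of the 43 lower genes, 9 were also past 2-fold in all other nuclei, where 40 of the 8063 genes were lower. They were Actr3b, Dkk2, Gm19299, Mical2, Mir133a-1hg, Myl1, Ppp1r3a, Rbm20 and Sorcs1. Rbm20, a splicing regulator of titin, stood at 106 CPM in plantaris against 706 CPM in gastrocnemius macrophage nuclei, a log2 ratio of -2.73, and had -2.46 in all other nuclei. Myl1, a myosin light chain of fast fibres named after its values were seen, stood at 273 against 896 CPM, a ratio of -1.72, and had -1.88 in all other nuclei. Calcr, a receptor of quiescent muscle stem cells, stood at 21.6 against 85.5 CPM, a ratio of -1.99 (-2.84 to -1.13), with 0.63 in all other nuclei and -1.88 (-2.88 to -0.88) in the cluster. Muscle stem cell markers summed to 176 against 323 CPM. Rbm20, Myl1 and Calcr are best known from fibres and stem cells, and the source of their UMIs in macrophage nuclei was not tested.

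Genes higher in plantaris macrophage nuclei included genes of the matrix. Of the 40 genes, 16 were also past 2-fold in all other nuclei, where 153 of the 8063 genes were higher, and 39 had the same sign there. Ogn, a matrix proteoglycan, had 59 UMIs in plantaris and 0 in gastrocnemius macrophage nuclei. With the 0 set to 3 counts it was 4.08-fold higher, and the lower bound of its log2 interval was 1.68. Pi16, a marker of adventitial mesenchymal cells, had 48 and 0 UMIs, 3.32-fold higher in the same way, with a lower log2 bound of 1.38. Thinned to 1000 UMIs per nucleus, Ogn had 10 and 0 UMIs and Pi16 had 4 and 0, too few for a bound above 0 on the log2 scale. In the cluster, with the 0 set to 3 counts, Ogn was 2.69-fold and Pi16 2.04-fold higher. Their lower log2 bounds there were 1.05 and 0.62, so the interval of Pi16 reached inside 2-fold. In all other nuclei their log2 ratios were 0.24 and 0.38. Col15a1, a collagen of the mesenchymal list, stood at 264 against 81.8 CPM, a log2 ratio of 1.69 (1.07 to 2.39), with 0.97 in all other nuclei and 1.92 in the cluster. The sums of mesenchymal markers (1524 against 940 CPM) and of tenocyte markers (237 against 63.2 CPM) were higher in the same nuclei, and their part in these results was not tested. Inside the cluster those sums were 1452 against 844 CPM and 127 against 35.8 CPM.

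Of the 12 genes whose interval lay farthest above 0, 3 encode chaperones or their partners, and these were past 2-fold in all other nuclei too. Hsp90ab1, a form of the chaperone HSP90, stood at 146 CPM in plantaris against 26.0 CPM in gastrocnemius macrophage nuclei, a log2 ratio of 2.49 (1.42 to 3.83), with 1.99 in all other nuclei. Hsph1, a co-chaperone, had 99 and 2 UMIs, a ratio of 3.36 (1.47 to 6.42), with 2.71 in all other nuclei. Dnaja1, which hands clients to HSP70, had 120 and 3 UMIs, a ratio of 3.05 (1.47 to 5.35), with 2.32. By the mean of the CPM of each nucleus the intervals of Hsp90ab1 (0.53 to 2.94) and Hsph1 (0.21 to 5.17) reached inside 2-fold, and thinned to 1000 UMIs per nucleus that of Dnaja1 (-0.14 to 4.97) held 0. Fam155a, a subunit of the sodium leak channel complex, had 78 and 0 UMIs, 5.39-fold higher with the 0 set to 3 counts. The lower bound of its log2 interval was 2.10, and its log2 ratio in all other nuclei was 2.85.

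A few of the higher genes had much smaller ratios in all other nuclei. Efna5, a ligand of Eph receptors, had 109 UMIs in plantaris and 1 in gastrocnemius macrophage nuclei, a log2 ratio of 4.50 (1.99 to 9.81), with 0.48 in all other nuclei. Rgs6, a regulator of G proteins, had 311 and 13 UMIs, a ratio of 2.31 (1.51 to 3.24), with 0.87, and Bmp1, a protease that trims collagen precursors, had 156 and 5 UMIs, a ratio of 2.69 (1.44 to 4.34), with 0.95. Other nuclei of non-myonuclear clusters outside the macrophage-like cluster held more of each gene than macrophage nuclei did. Efna5 stood at 156 and 155 CPM there, against 84.0 and 3.72 CPM in macrophage nuclei. Rgs6 stood at 608 and 451 CPM, against 240 and 48.3 CPM, and Bmp1 at 226 and 157 CPM, against 120 and 18.6 CPM. The source of these UMIs in macrophage nuclei was not tested. Thinned to 1000 UMIs per nucleus, Efna5 had 15 and 0 UMIs, Rgs6 had 47 and 1, and Bmp1 had 20 and 0. In the cluster Efna5 had 58 and 0 UMIs and was 4.72-fold higher with the 0 set to 3 counts. The log2 ratios of Rgs6 and Bmp1 there were 1.97 and 2.51. Inside the cluster 18 of the 40 higher genes were also past 2-fold, of 27 higher there, and 29 of the 43 lower genes, of 31 lower there. With each nucleus thinned to 1000 UMIs, which left out 109 plantaris and 72 gastrocnemius macrophage nuclei, 8 genes were higher and 8 lower.

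**Figure D5:**
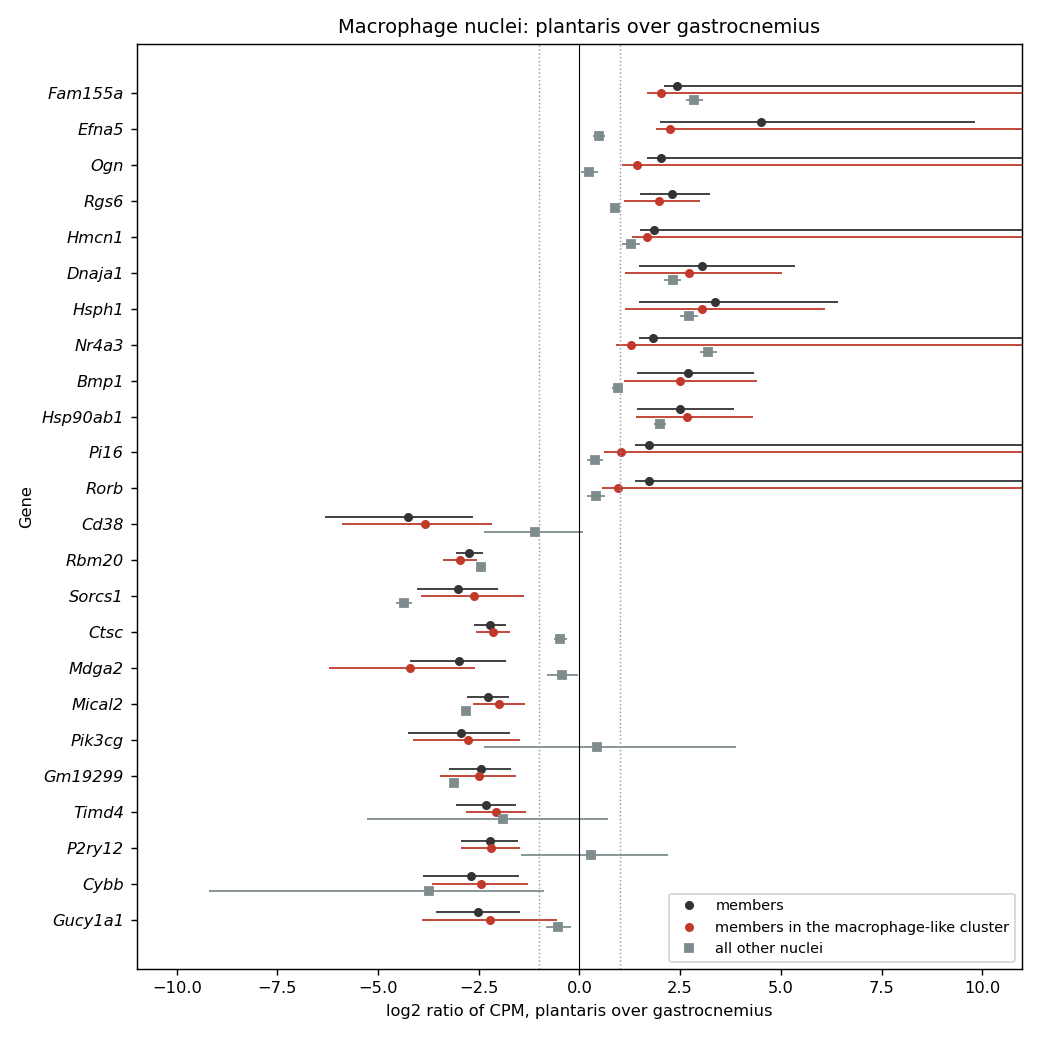
Log2 ratio of CPM, plantaris over gastrocnemius, for the 12 genes in each direction whose interval lay farthest from 0, in macrophage nuclei (dark), in those inside the macrophage-like cluster (red) and in all other nuclei (grey squares); lines are 95% counting intervals and dotted lines mark 2-fold. Where gastrocnemius had 0 UMIs the point is the ratio with the 0 set to 3 counts. Timd4, P2ry12, Ctsc and Cybb lie to the left, and chaperone and matrix genes to the right.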

How the data were processed

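Cell Ranger 6.0.1 and the mm10 build are named in the submitters' processing notes. The annotation, the counting of intronic reads and the calling of nuclei are not stated in the sources used here. The authors deposited raw UMI counts of 32285 genes in 16530 nuclei, with a table that gives each nucleus its library. The lowest total was 500 UMIs. All nuclei were used. Members and gene lists were chosen with earlier results of these data known, and lists of 18 cell kinds and 15 functions came from textbook knowledge.

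Counts were summed over nuclei and given as CPM. Intervals are exact (Clopper-Pearson for shares, Poisson for CPM, conditional binomial for ratios). With 1 library per muscle no test was run. In ratios, 0 UMIs were replaced by 3 counts per library. Named genes were the 9 rule genes, the 25 with the largest smaller ratio among genes in 10% or more of macrophage nuclei, the 10 lowest at 200 CPM or more in other nuclei, the 12 in each direction between muscles, and list genes. Nuclei were clustered without the 9 genes (scanpy 1.11.5, 2000 variable genes, 30 components, 15 neighbours, Leiden resolution 1, seed 0, 22 clusters). Scrublet marked 2 nuclei per library, below 0.5%, so doublets remain. The ratio script was tested on simulated counts. Alternatives covered the rule, depth, scaling, filters, doublet scores and clusters. Software was Python 3.11.15, numpy 2.4.6, scipy 1.17.1, pandas 2.3.3, igraph 0.11.9, scikit-learn 1.9.0 and matplotlib 3.10.9. Results of some genes and of 1 functional list are not reported here.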

Additional observations from a re-analysis of the deposited data

Results flagged for a closer look

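For 5 genes the ratio of macrophage nuclei over all other nuclei had opposite signs in the muscles, with counting intervals that excluded 0 on both sides. The difference itself was not tested, because each muscle has 1 library. The log2 ratio of Cd36 was -0.69 in plantaris and 1.16 in gastrocnemius, and that of Maf was -0.15 and 0.68. The log2 ratio of Pi16 was 0.79 in plantaris, and those of Efna5 and Ogn were 1.09 and 1.29, while in gastrocnemius macrophage nuclei Pi16 and Ogn had 0 UMIs and Efna5 had 1.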

How the results depend on the processing

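The share of macrophage nuclei was 4.53% in plantaris and 2.47% in gastrocnemius with 2 or more of the 9 genes, and 3.25% in plantaris with 4 or more. Thinned to 500 UMIs it was 2.24% and 1.46%, and to 1000 UMIs 1.97% and 0.795%. Genes over 4-fold higher in macrophage nuclei numbered 889 with 10 or more UMIs, 303 with 50 or more, 147 against other nuclei of non-myonuclear clusters, 1986 at 2-fold and 216 at 8-fold. Genes over 4-fold lower numbered 74 by mean CPM, 7 by median-ratio scaling, 6 without the highest 5% of doublet scores, 8 for the macrophage-like cluster, 167 at 2-fold and 0 at 8-fold, where no p was computed. Between the muscles, higher genes numbered 284 by mean CPM, 25 by median-ratio scaling, 26 without the highest doublet scores, 8 when thinned to 1000 UMIs and 1035 by the ratio itself. Lower genes numbered 27 with 50 or more UMIs, 8 when thinned and 289 by the ratio itself. The log2 ratio of Gucy1a1 changed sign when thinned (0.15), on 4 and 1 UMIs. Thinned, Ogn, Hmcn1, Nr4a3, Pi16 and Rorb had 10, 8, 10, 4 and 8 UMIs in plantaris and 0 in gastrocnemius, so no ratio could be given. In gastrocnemius the pericyte list's median over other nuclei became -0.49 by mean CPM and -0.29 against non-myonuclear clusters, where the inflammatory list's became -0.0059; the cause was not tested. Median-ratio scaling moved the median log2 ratio over other nuclei by -0.26 in plantaris and -0.40 in gastrocnemius, and mean CPM moved it by -0.25 and -0.24. No paired analysis was possible because each muscle has 1 library and the labels tie no samples together. The 139 gastrocnemius macrophage nuclei and their 269042 UMIs limit the precision.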

Other observations

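Cx3cr1, a chemokine receptor of monocytes and some resident macrophages, had 2 UMIs in plantaris and 8 in gastrocnemius macrophage nuclei, fewer than the 20 UMIs required for a comparison. Siglech, a lectin of plasmacytoid dendritic cells and microglia, had 30 and 7 UMIs in macrophage nuclei, or 23.1 and 26.0 CPM, against 0.11 and 0.16 CPM in all other nuclei. Mbp is known as the myelin basic protein of Schwann cells and is also transcribed in blood cells. It stood at 37.7 and 48.3 CPM, against 3.79 and 6.71 CPM. Of the 8 Schwann cell markers, 6 were detected in plantaris and 4 in gastrocnemius macrophage nuclei. They summed to 152 and 167 CPM, against 80.7 and 76.8 CPM in all other nuclei. Sox10 and S100b of that list stood at 0 UMIs in macrophage nuclei of both muscles. Pla2g4a, a phospholipase that frees arachidonic acid, had 89 and 4 UMIs, a log2 ratio between plantaris and gastrocnemius of 2.20 (0.80 to 4.11), with 0.46 in all other nuclei.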
